A study of Rattus norvegicus with 11 samples.

Results

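The genes of the circadian clock were followed in the medial prefrontal cortex of rats tested for heroin-seeking. The 9 members are Per1, Per2, Arntl, Clock, Dbp, Nr1d1, Nr1d2, Bhlhb2 and Bhlhb3, chosen by name among the 35581 different names on the array, and they are carried by 10 of its 41012 non-control probes. Bhlhb3 has 2 probes and every other member has 1. Current RefSeq symbols are Bmal1 for Arntl, Bhlhe40 for Bhlhb2 and Bhlhe41 for Bhlhb3.

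In mammalian cells the proteins CLOCK and ARNTL bind together to E-box sequences and switch on the Per and Cry genes, whose products return to the nucleus and repress that same pair. The nuclear receptors NR1D1 and NR1D2 repress Arntl, DBP activates genes through D-box sequences, and BHLHB2 and BHLHB3 repress E-box genes. In neurons Per1, Per2 and Bhlhb2 are also known to respond within a short time to activity, to cyclic AMP signalling or, for the Per genes, to glucocorticoid hormones.

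The arrays compared 6 rats that had self-administered heroin with 5 rats that received saline whenever a matched rat took heroin. All 11 were males of 4 months, had 14 days of sessions of 3 hours, then 14 days of abstinence, and were killed directly after a 90-minute extinction session in the chamber in which no drug was given, so both groups shared the handling, the context and the propofol sedation. Each array measured RNA of 1 rat, and the tissue block held cingulate, prelimbic, infralimbic and medial orbital cortex. The clock hour at which each rat was killed and the strain are not given in the sources used here, so a difference in hour between the groups was not tested.

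Signal is given in multiples of the median probe of the same array (array medians), and log2 changes are heroin minus saline. Detection of a probe means that its spots stood well above the local background by the scanner software. From 28185 to 33835 probes met this on an array, and 25555 entered the tests. Arrays with the same scan date in the file headers were taken to share a slide. By this, the rats with the same number in the labels shared a slide, and heroin 1 was alone on its slide. Saline rats always lay at position 3 and heroin rats at position 4, so position and group cannot be told apart. With the arrays scaled to their medians, as in the methods of the study, the median tested probe was 0.18 higher (log2) in the heroin rats. Under quantile normalization it was 0.01 higher and under scaling to the 75th percentile it was -0.03. The change of each tested member is therefore also given under quantile normalization. Neuronal markers summed to 279 to 485 array medians in heroin rats and 308 to 448 in saline rats. None of the tested markers of neurons (7 genes), oligodendrocytes (10), astrocytes (9), microglia (8), endothelium (7), blood (3), striatum (6) or choroid plexus (3) passed the thresholds given for single genes here. Of all tested probes, 2.72% passed them. The medians of these lists lay between -0.02 and 0.17, and between -0.22 and -0.06 under quantile normalization. In dissected tissue, fewer cells of a type and less RNA per cell cannot be told apart.

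The promoters of 3 members that held a motif are shown. Their genes carry the largest difference between groups (Per2) or take part in relations between rats described further on (Per2 with Bhlhb2, and Arntl with Dbp). Per1 and Dbp also take part in such relations, but their windows held none of the motifs searched and are not printed. The choice therefore does not link motifs to these relations. Each run is the 250 bases before a transcription start in RefSeq build GRCr8, on the strand of the gene, with motifs in capitals. They lie at chr9:99496994-99497243 (minus strand, Per2), chr4:143174200-143174449 (plus strand, Bhlhb2) and chr1:176766078-176766327 (plus strand, Arntl).
Per2: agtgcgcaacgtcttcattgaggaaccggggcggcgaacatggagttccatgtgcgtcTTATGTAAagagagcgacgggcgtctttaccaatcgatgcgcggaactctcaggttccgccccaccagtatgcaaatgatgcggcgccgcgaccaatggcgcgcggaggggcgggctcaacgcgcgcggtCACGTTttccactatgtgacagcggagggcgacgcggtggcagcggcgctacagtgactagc
Bhlhb2: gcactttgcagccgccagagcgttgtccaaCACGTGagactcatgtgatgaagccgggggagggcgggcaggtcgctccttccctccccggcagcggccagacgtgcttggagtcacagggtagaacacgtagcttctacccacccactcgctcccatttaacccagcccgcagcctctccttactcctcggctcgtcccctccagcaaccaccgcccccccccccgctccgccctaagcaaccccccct
Arntl: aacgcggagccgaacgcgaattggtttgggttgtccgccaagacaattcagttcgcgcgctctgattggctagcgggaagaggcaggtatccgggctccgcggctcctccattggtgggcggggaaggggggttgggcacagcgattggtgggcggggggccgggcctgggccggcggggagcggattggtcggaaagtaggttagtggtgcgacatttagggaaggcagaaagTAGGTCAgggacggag

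The capitals mark a D-box (TTATGTAA) between 192 and 185 bases before the start of Per2 and an E'-box (CACGTT) between 62 and 57 bases before it. In Bhlhb2 they mark an E-box (CACGTG) between 220 and 215 bases before the start, and in Arntl the core of a ROR element (TAGGTCA), the sequence through which ROR and NR1D receptors act, between 16 and 10 bases before it. All 9 members had an entry in the RefSeq promoter table, with 2 starts each for Clock and Nr1d1. Both strands were searched for these E-box, E'-box and D-box letters, for a ROR element core written TAGGTCA or with TGGGTCA in its place, for the cyclic AMP response element, TGACGTCA, and for its part TGACG, which lies within the full element. Of the 33469 promoters of this length, 5.59% held the E-box, 4.07% the E'-box, 0.828% the D-box, 5.62% a ROR element core, 1.59% the full cyclic AMP element and 18.2% its part. Besides those printed, Bhlhb3 held an E-box between 48 and 43 bases before its start, and Nr1d1 held an E'-box at 1 start and an E-box at the other. The windows of Per1, Clock, Dbp and Nr1d2 held none of these letters. These are matches of letters in one window and say nothing of binding.

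Of the 9 members, 7 were detected on every array and tested. Clock, the partner of Arntl, was detected in 3 of 6 heroin and 4 of 5 saline rats, with signals from 0.183 to 0.583 array medians in heroin rats and 0.267 to 0.431 in saline rats. Nr1d2 was detected in 4 of 6 heroin and all 5 saline rats, with 0.309 to 0.694 array medians in heroin rats and 0.443 to 0.574 in saline rats. Both groups overlapped for both genes, and these signals reached at most 2.04 times (Clock) and 3.12 times (Nr1d2) the lowest signal scored above background on the same array, so they carry little information. Fitted without the filter on detection, the log2 change was -0.00 for Clock (SE 0.25) and -0.22 for Nr1d2 (SE 0.20). The signals of the 7 tested members were at least 11.2 times that lowest signal and none was saturated.

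Per2 had the largest difference among the clock genes and was the only member to pass the thresholds of the methods, an unadjusted p under 0.02 with at least a 1.4-fold change. The p is limma's, and by the same rule 2.72% of all tested probes passed. By the methods' own test, which does not assume equal variances, no clock gene passed. Per2 encodes a repressor of the clock and its probe lies at chr9:90850379-90850438 on the minus strand (build rn3, the build of the array file for all probe positions here). Its signal was 25.0, 23.1, 23.9, 25.0, 21.1 and 15.4 array medians in heroin rats 1 to 6, and 12.0, 11.5, 21.4, 20.7 and 13.8 in saline rats 2 to 6. Saline rats 4 and 5 lay within the heroin range and the other 3 below it, so the groups overlapped. The mean was 22.3 ± 3.64 in heroin rats (SD, n = 6) and 15.9 ± 4.82 in saline rats (SD, n = 5). The log2 change was 0.52 with an SE of 0.19 and a 95% interval of 0.11 to 0.93, or 1.43-fold. limma gave an unadjusted p of 0.0167 and a Benjamini-Hochberg adjusted p of 0.263 over all tested probes, and the exact permutation test of the same rats gave p = 0.0519 (two-sided). Under quantile normalization the change was 0.28 (SE 0.15), with an interval of -0.06 to 0.61, and the call was lost. The call was also lost without any one of 8 of the 11 rats, and kept without heroin 6, saline 4 or saline 5. The changes without 1 rat ran from 0.41 without saline 3 to 0.64.

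Per1, the other Per repressor on the list, was 7.04, 8.20, 9.64, 7.81, 6.72 and 3.46 array medians in heroin rats 1 to 6. It was 5.40, 4.13, 6.21, 5.60 and 4.38 in saline rats 2 to 6. The other 5 heroin rats were above every saline rat, whereas heroin 6 was below every saline rat. The means were 7.14 ± 2.08 (SD, n = 6) and 5.14 ± 0.87 (SD, n = 5). The log2 change was 0.43 (SE 0.22, 95% interval -0.05 to 0.90), with an adjusted p of 0.287 by limma and p = 0.13 by the exact permutation test. Quantile normalization gave 0.20 (SE 0.21). Without heroin 6 the change of Per1 was 0.62 (SE 0.15), it passed the thresholds of the methods, and its adjusted p by limma was 0.205. The Per1 probe covers 585 bases of the genome at chr10:55881463-55882047 with its 60 bases, so the annotation of the array places it across a gap within the transcript.
Per1 probe: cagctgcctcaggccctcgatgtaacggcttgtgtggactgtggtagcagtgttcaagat

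Bhlhb2 codes for a repressor of E-box genes and had the next largest difference. It was 13.5, 15.7, 16.9, 18.2, 10.8 and 7.93 array medians in heroin rats 1 to 6. It was 8.91, 6.97, 12.5, 15.1 and 10.03 in saline rats 2 to 6. There were 3 heroin rats above every saline rat, and heroin 6 was again the lowest of its group. The log2 change was 0.37 (SE 0.23, 95% interval -0.13 to 0.86), with an adjusted p of 0.346 by limma and an exact permutation p of 0.199. It was 0.13 (SE 0.20) under quantile normalization. Leaving out 1 rat moved it from 0.22 (without saline 3) to 0.51 (without heroin 6). The probe lies at chr4:144389848-144389907.

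**Figure D1:**
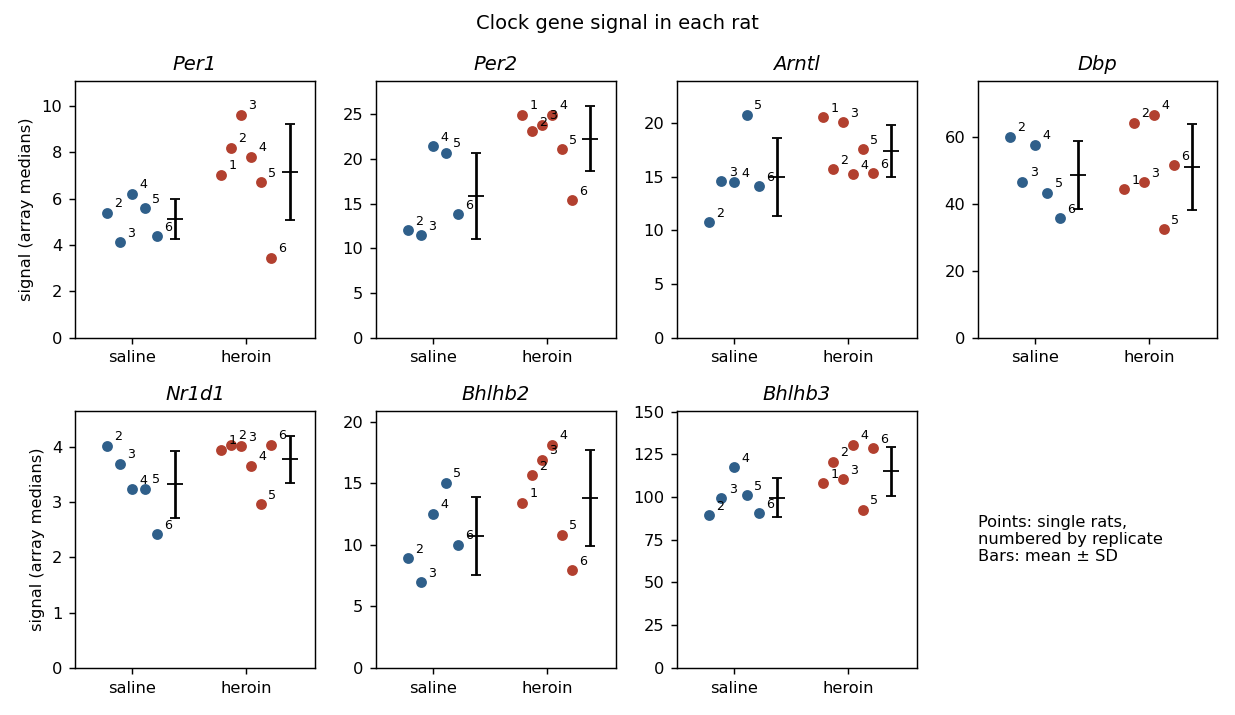
Signal of the 7 tested clock genes in each rat, on a linear axis in array medians, with saline rats in blue and heroin rats in red, numbered by replicate. Bars give the mean and SD. Heroin 6 is the lowest of the heroin rats for Per1 (3.46), Per2 (15.4) and Bhlhb2 (7.93), but not for Dbp, Nr1d1 or Bhlhb3. For Arntl it is next to the lowest, at 15.3 against 15.2 in heroin 4.

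The other 4 tested members differed less. Arntl, the partner of CLOCK, ranged from 15.2 to 20.5 array medians in heroin rats (median 16.6) and from 10.7 to 20.8 in the 5 saline rats, whose values were 10.7, 14.6, 14.5, 20.8 and 14.1. Every heroin rat was above 4 of the 5 saline rats and below saline 5. Its log2 change of 0.24 (SE 0.16, 95% interval -0.10 to 0.58) was -0.00 (SE 0.12) under quantile normalization. It was 0.13 without saline 2 and 0.37 without saline 5, and passed the thresholds of the methods in neither. Its probe lies at chr1:171281903-171281962.

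Dbp, which encodes a D-box activator and is a strongly cycling output of the clock, had the smallest difference. Heroin rats 1 to 6 had 44.5, 64.4, 46.5, 66.8, 32.5 and 51.6 array medians. Saline rats 2 to 6 had 60.2, 46.7, 57.8, 43.4 and 35.7. The 2 ranges nearly coincided. The log2 change was 0.05 (SE 0.19), and its 95% interval of -0.36 to 0.47 leaves room for a difference in either direction. It was -0.20 (SE 0.19) under quantile normalization, with an interval of -0.61 to 0.22. The probe lies at chr1:96256131-96256190.

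Nr1d1, the repressor of Arntl, was between 2.96 and 4.04 array medians in heroin rats (median 3.97) and was 4.02, 3.69, 3.24, 3.24 and 2.42 in saline rats 2 to 6. Heroin 5 was the lowest heroin rat and lay within the saline range. The log2 change was 0.20 (SE 0.15), 0.09 without saline 6, and 0.00 (SE 0.15) under quantile normalization. Its probe covers 355 bases on the minus strand, chr10:87557535-87557889, and like that of Per1 it spans a gap.
Nr1d1 probe: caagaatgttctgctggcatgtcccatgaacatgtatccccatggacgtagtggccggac

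Bhlhb3, the relative of Bhlhb2, ranged from 92.7 to 131 array medians in heroin rats and from 89.3 to 118 in saline rats by the probe detected on all arrays, which the array file places at chr4_random:1955459-1955518. The log2 change was 0.21 (SE 0.13), with an exact permutation p of 0.0801, and -0.04 (SE 0.10) under quantile normalization. Its second probe, at chr4_random:1953325-1953384, was detected on 9 arrays and its signal reached at most 3.19 times the lowest signal above background, so the gene is described by the first alone. Adjusted p by limma was 0.366 for Arntl, 0.872 for Dbp, 0.405 for Nr1d1 and 0.340 for Bhlhb3.

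Across the 7 tested members, 1 passed both thresholds and the same gene, Per2, was the 1 with an unadjusted p under 0.05, beside 18.5% of all tested probes. No member had an adjusted p under 0.05 by limma, and 0% of all probes did, while 4723 of the 25555 had an unadjusted p under 0.05. The ranges of the groups overlapped for every member, whereas they did not overlap for 1.78% of all probes. All 7 log2 changes were above 0, as were those of 78.7% of all tested probes. Their median was 0.24, against 0.18 for all tested probes. Under quantile normalization 4 of 7 were above 0 (53.2% of all probes) with a median of 0.00, against 0.01 for all probes. Under the 75th percentile 4 of 7 were above 0 (41.7% of all probes) with a median of 0.02, against -0.03. Per1, Per2 and Bhlhb2 were above the median probe under all 3 scalings, by 0.24, 0.34 and 0.18 under the main one. Dbp was below it under all 3, by -0.13 under the main one, and the intervals of these 4 changes all overlapped. Differences between 2 genes within a rat do not depend on the scaling to the median. The difference of Per2 from Dbp, the members with the largest and the smallest change, was 0.47 higher (log2) in heroin rats, that from Bhlhb3 0.31 and that from Arntl 0.28. For Per1 these were 0.37 from Dbp, 0.22 from Bhlhb3 and 0.19 from Arntl. The ranges of the 2 groups overlapped in each. The mean differences follow from the changes of the single genes given above, so they are not separate support. Pairs of other probes were not compared in this way.

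**Figure D2:**
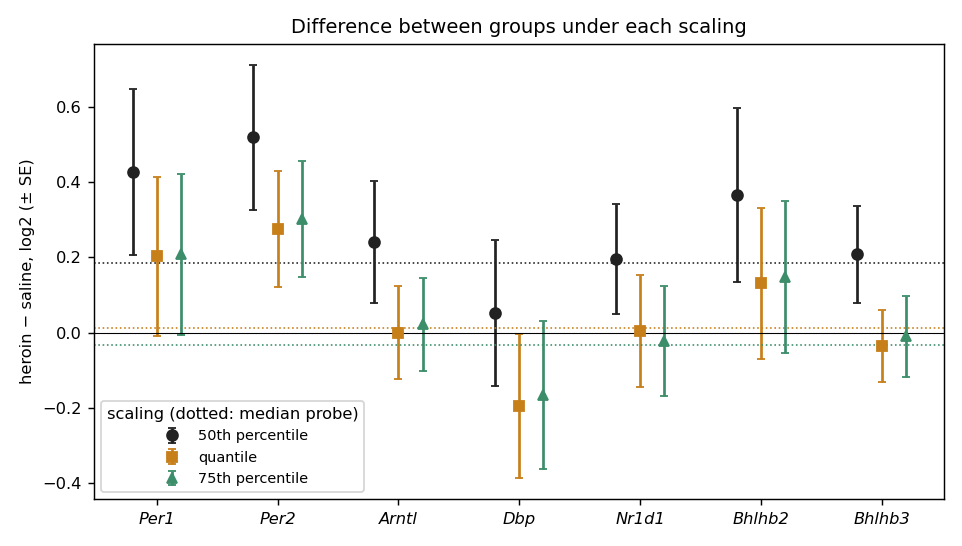
Log2 change (heroin minus saline) with its SE for each tested clock gene when arrays were scaled to the 50th percentile (black circles), by quantile normalization (orange squares) or to the 75th percentile (green triangles). Dotted lines are the median tested probe under each scaling (0.18, 0.01 and -0.03). Per2 goes from 0.52 to 0.28 and Arntl from 0.24 to -0.00 between the first and second scaling.

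Heroin and saline rats of the same slide could be compared in 5 pairs. Per2 was higher in the heroin rat on all 5 slides, by 0.95, 1.06, 0.22, 0.03 and 0.16 (log2) for rats 2 to 6. Its 2 largest differences came from rats 2 and 3. Per1 was higher on 4 of 5, with differences from -0.34 to 1.22, and Bhlhb2 on 3 of 5, from -0.48 to 1.28. Arntl, Nr1d1 and Bhlhb3 were higher on 4 of 5 and Dbp on 3 of 5. Under quantile normalization the counts were 4 for Per1 and Per2, 3 for Bhlhb2 and Nr1d1, and 2 for Arntl, Dbp and Bhlhb3. Counts by slide were not made for all probes, of which 78.7% had a change between groups above 0 (53.2% under quantile normalization). With the slide as a block, Per2 had a change of 0.48 (SE 0.19) and an adjusted p of 0.454 by limma, and it no longer passed the thresholds of the methods.

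The next question was which clock genes went up and down together between rats of the same group. For each of the 21 pairs of tested members, deviations from the group means were correlated over the 11 rats, with an exact permutation of rats within groups (86400 arrangements) and adjustment over the 21 pairs. Of the 21 pairs, 15 had r above 0. Per1, Per2 and Bhlhb2, the members known to respond to activity, had positive correlations with each other. Pairs of other probes were not correlated in this way, so whether these 3 lie closer than ordinary probes was not tested. With the group means left in, 4.75% of 11152 named probes had an r above 0.8 with Per1. Per2 and Bhlhb2 had r = 0.89 (rho = 0.85), with an exact permutation p of 0.000579, adjusted 0.0122, and r was 0.76 without heroin 6 and saline 3. Per1 and Bhlhb2 had r = 0.83 (rho = 0.81), with an exact permutation p of 0.00223, adjusted 0.0235, and 0.76 without heroin 3 and heroin 6. Per1 and Per2 had r = 0.73 (rho = 0.72), with an exact permutation p of 0.00837, which gave 0.0586 after adjustment. By Spearman's rho no pair passed after adjustment, and the exact permutation p of Per2 with Bhlhb2 was then 0.00293, adjusted 0.0615.

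Heroin 6 was low for all 3 genes. Without it, or without heroin 5, no pair had an adjusted p under 0.05. Under quantile normalization r was 0.84 for Per2 with Bhlhb2 (exact permutation p = 0.00418, adjusted 0.0439), 0.79 for Per1 with Bhlhb2 (adjusted 0.0792) and 0.70 for Per1 with Per2 (adjusted 0.165). Without heroin 6 and saline 3, the 2 rats farthest from the median of the first gene in each pair, r was 0.30, 0.11 and -0.26, so under that scaling the relations rest on those rats. A slide held at most 1 rat of each group, so no correlation within a single slide was possible, and the differences over 5 slides are too few samples for one.

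Arntl and Dbp had a negative correlation. With arrays scaled to their medians r was -0.48 (rho = -0.70, exact permutation p of r = 0.131, adjusted 0.392). Under quantile normalization r was -0.88 (rho = -0.87, exact permutation p = 0.00138, adjusted 0.0289), and r was -0.79 without heroin 4 and saline 2, the 2 rats farthest from the median of Arntl there. Saline 2 had the lowest Arntl signal of its group (10.7) and the highest Dbp signal (60.2). Saline 5, with the highest Arntl signal (20.8), had 43.4 for Dbp. Saline 6 went the other way, with the lowest Dbp signal of its group (35.7) and an Arntl signal (14.1) above that of saline 2 alone. Dbp had r = 0.71 with Bhlhb3 (adjusted exact permutation p = 0.108) and r = 0.68 with Nr1d1 (adjusted 0.105), and neither passed. The call for Arntl and Dbp therefore depends on the scaling.

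**Figure D3:**
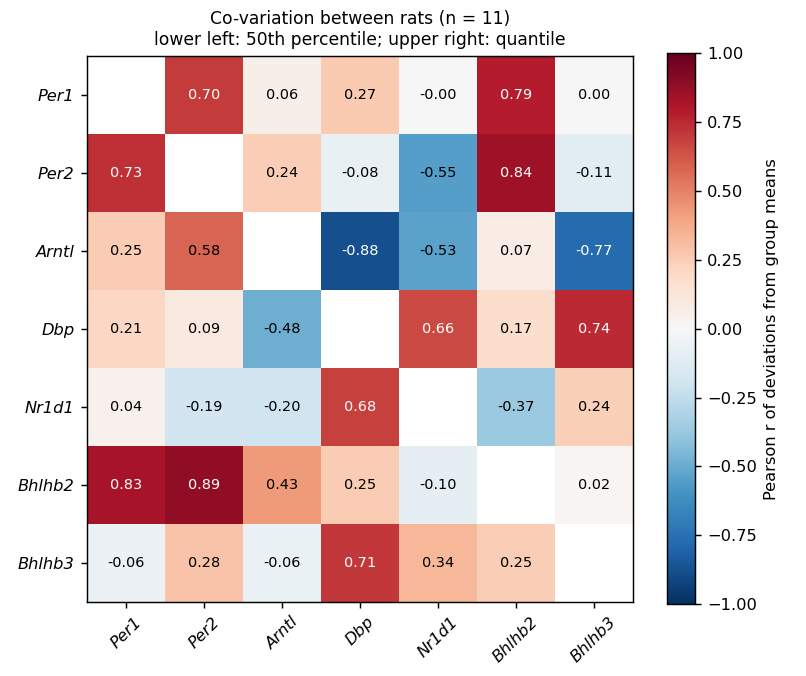
Pearson's r of deviations from the group means for each pair of tested clock genes over 11 rats, with arrays scaled to the 50th percentile in the lower left and quantile normalized in the upper right. Red is positive and blue negative. Per1, Per2 and Bhlhb2 have positive r under both scalings (0.70 to 0.89), and Arntl with Dbp goes from -0.48 to -0.88.

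**Figure D4:**
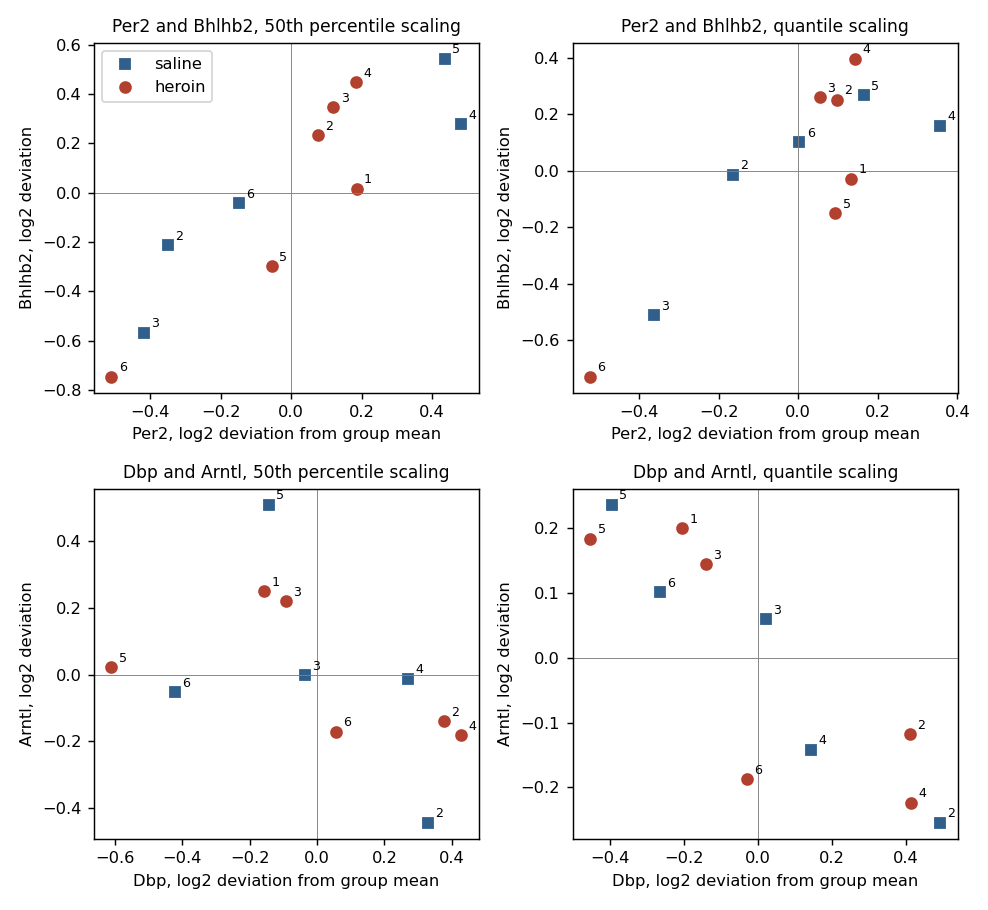
Deviation of each rat from its group mean (log2) for Per2 against Bhlhb2 (top) and Dbp against Arntl (bottom), with arrays scaled to the 50th percentile (left) or quantile normalized (right); red circles are heroin rats and blue squares saline rats, numbered by replicate. Heroin 6 lies at the lower left for Per2 and Bhlhb2, and the points for Dbp and Arntl run from upper left to lower right under quantile normalization.

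The probes most like 3 members, out of 11152 named probes, are given as a description. Here r is Pearson's r of log2 signal over the 11 rats with the group means left in, so it includes any difference between groups. For Dbp they were Rbm3, which encodes a cold-inducible RNA-binding protein (r = 0.92), Cdk2 (0.91) and Zmynd11 (0.86), and 0.143% of the candidates had an r above 0.8. For Per1 they were Fbxl12 (0.97), Ddn, a protein of dendrites (0.97), and Wdr18 (0.96), with 4.75% above 0.8. For Arntl they were Cntnap1 (0.97), Stk39 (0.95) and Slc38a2 (0.95), with 6.81% above 0.8. The median r of all candidates was 0.07 with Dbp, 0.33 with Per1 and 0.45 with Arntl. Under quantile normalization r was 0.91 for Rbm3, 0.85 for Cdk2 and 0.76 for Zmynd11 with Dbp. With Per1 it was 0.74 for Fbxl12, 0.94 for Ddn and 0.76 for Wdr18, and with Arntl it was 0.94 for Cntnap1, 0.91 for Stk39 and 0.90 for Slc38a2.

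Other genes of the clock were read from a list of 29, of which 24 were tested. One gene, Vip, was higher by both thresholds and none was lower, beside 2.72% of all probes, and the median change was 0.17 (0.02 under quantile normalization). Vip encodes a neuropeptide that couples clock neurons in the suprachiasmatic nucleus and marks a class of interneurons in cortex. It was 100 ± 11.7 array medians in heroin rats (SD, n = 6, from 82.6) and 71.5 ± 8.99 in saline rats (SD, n = 5, up to 81.9). The lowest heroin rat was thus just above the highest saline rat. Its log2 change of 0.49 (SE 0.13) had an adjusted p of 0.263 by limma and was 0.25 (SE 0.10) under quantile normalization, where it did not pass both thresholds. The call was also lost without heroin 2, 3 or 6 or saline 2, 3 or 6, since the change was close to 1.4-fold (0.49 on the log2 scale), with values from 0.42 to 0.54.

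Of the repressors Cry1 and Cry2, partners of the PER proteins, the log2 changes were 0.27 (SE 0.15) and 0.32 (SE 0.16), and 0.04 and 0.15 under quantile normalization. Per3, the relative of Per1 and Per2 that is not known for induction by activity, had -0.09 (SE 0.22) and -0.00. Its signals were low, 0.372 to 0.736 array medians in heroin rats and 0.382 to 0.749 in saline rats. Only 1 of its 3 probes was detected on every array, so Per3 is a weak comparison for Per1 and Per2. Npas2, which can replace CLOCK, had 0.16 (SE 0.14), and Arntl2, the relative of Arntl, had -0.16 (SE 0.15). The D-box factors Tef and Hlf had 0.07 (SE 0.16) and -0.14 (SE 0.16), and Nfil3, which represses through the D-box, had 0.12 (SE 0.16). Nono and Wdr5, which encode proteins that bind PER complexes, had 0.37 (SE 0.17) and 0.35 (SE 0.15), with adjusted p by limma no lower than that of Vip. Under quantile normalization they had 0.16 and 0.17. Nono had 1 array without a usable spot. The kinase genes Csnk1d and Csnk1e had 0.20 (SE 0.13) and -0.16 (SE 0.21) by their brighter probes, but -0.01 and 0.17 by their other probes. The coactivator gene Ppargc1a had -0.20 (SE 0.22) and the neuropeptide gene Avp -0.22 (SE 0.18). The remaining 9 tested genes lay between -0.16 (Sirt1) and 0.29 (Id2), and the brightest Id2 probe had no usable spot on 7 arrays. The other Id2 probes gave 0.04. Nampt, named Pbef1 on the array, had 0.22 by its brighter probe and -0.69 by the other, and no call was made on it. Rora was detected on 10 of 11 arrays and Prok2 on none, and 3 of the 29 were not found by name on the array.

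**Figure D5:**
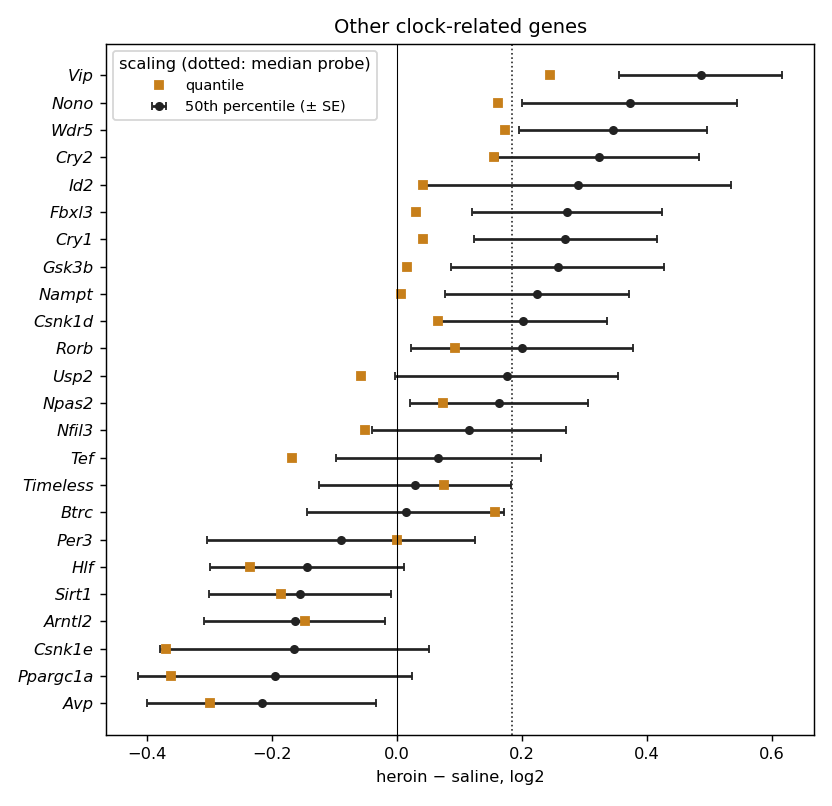
Log2 change (heroin minus saline) of the 24 tested other clock-related genes, with arrays scaled to the 50th percentile (black, with SE) or quantile normalized (orange squares); the dotted line is the median tested probe (0.18). Vip is highest at 0.49, and Vip, Nono and Wdr5 are the genes that lie more than 1 SE above the dotted line.

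Because Per1, Per2 and Bhlhb2 are known to respond to neuronal activity, they were set beside 29 tested activity-induced genes. These 3 are also the tested members with the largest changes, and their response to activity was not tested here. The study had picked many of the 29 from these same arrays, so that their direction is not independent evidence. Of these 29, 11 were higher by both thresholds and none lower, beside 2.72% of all probes. The median change was 0.46, against 0.18 for all tested probes (0.26 against 0.01 under quantile normalization, where 4 passed). The 11 were Egr1, Egr2, Egr4, Arc, Homer1, Nr4a3, Dusp5, Dusp6, Bdnf, Ptgs2 and Sik1, with changes from 0.51 (Homer1, Dusp5) to 1.02 (Egr2). Beside the median of 0.46 over all 29, the changes of Per2, Per1 and Bhlhb2 were 0.52, 0.43 and 0.37. Between rats of the same group, the mean log2 signal of 28 of these genes had r = 0.51 with Per1, 0.38 with Per2, 0.59 with Bhlhb2 and 0.66 with Dbp, and no clock gene passed after adjustment over the 7 (smallest adjusted exact permutation p = 0.167). Heroin 6, the lowest heroin rat for all 3 clock genes, was next to the lowest for this mean, at 3.56. Heroin 5 had 3.45, and the other heroin rats had from 3.63 to 4.12.

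Of 13 tested glucocorticoid-induced genes, the Per genes left out, none passed both thresholds or had an unadjusted p under 0.05 by limma. Of all tested probes, 2.72% and 18.5% did so. The median change was 0.22, against 0.18 for all tested probes (-0.01 against 0.01 under quantile normalization). The 3 with the smallest p were Tsc22d3, with a change of 0.30 (SE 0.18), Nfkbia, with 0.42 (SE 0.28), and Fkbp5, a regulator of the glucocorticoid receptor, with 0.22 (SE 0.15). Under quantile normalization they were 0.05, 0.18 and -0.03.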

How the data were processed

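RNA of 11 rats was measured on single-colour Agilent arrays with probes of 60 bases, 1 array per rat; the methods give 12 arrays. The authors deposited, for each spot, a signal intensity from which Feature Extraction (9.5.1.1 per the file headers) had subtracted the background, without scaling between arrays. A second deposited file holds GeneSpring GX 7.3 values, each a ratio to the median of its probe, and was used only as an alternative.

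Control spots and spots marked non-uniform or outlying were left out, intensities below 5 were set to 5, spots of a probe were averaged, arrays were scaled to their own 50th percentile and log2 was taken. Tested probes were detected on all arrays (at least 0.5 of their spots) with a usable spot on 2 or more arrays per group. Groups were compared with limma (3.58.1, R 4.3.3; lmFit and eBayes, two-sided, all 11 rats) with p-values adjusted by Benjamini-Hochberg over all 25555 probes, and single genes by an exact permutation test over 462 divisions, whose smallest p is 0.00216. A gene stands by its brightest detected probe. The number of arrays limits the precision. The fit was tested on simulated data.

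The members, gene lists and tests were chosen with earlier results of these data known. All members and other clock-related genes were named; from the activity- and glucocorticoid-induced lists those past the thresholds or else the 3 smallest p; and for Per1, Dbp and Arntl the 3 most alike probes. Current symbols and promoters came from RefSeq (GRCr8); probe positions are in rn3, and whether a probe lies in an exon or UTR was not analysed here. The correlation with the activity-induced genes, the motifs searched, and scaling to the detected probes were chosen after seeing the data. Other alternatives were the 75th percentile, quantile normalization, normexp (offset 50), scaling before the floor, the relative values, keeping marked spots, 2 other detection filters, the methods' t-test, array weights, eBayes with a trended robust prior, a replicate block (also the slide), averaging probes, and leaving out each rat.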

Additional observations from a re-analysis of the deposited data

Results flagged for a closer look

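In each group, the gap between the most extreme rat and its nearest neighbour was set against the whole range of the group (log2 signal, Dixon's ratio). Of the 14 groups of values examined for the 7 tested clock genes, 3 stood out, where chance gives about 1 in 20 for a single group. The 14 groups come from the same 11 rats and are not independent, and Per1 and Per2 had r = 0.92 within the heroin rats. The count of 3 therefore cannot be read as an excess.

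Per1 in heroin 6, the lowest of the 6 heroin rats, had a ratio of 0.648 against a critical value of 0.625, and Per2 in the same rat had 0.653. Under quantile normalization the ratios were 0.698 and 0.868, so both gaps stood out there too. Bhlhb2 was also lowest in heroin 6, with a ratio of 0.375 that did not stand out. The array of heroin 6 had the lowest median signal of the 11 (42.7, against 58.0 to 83.2 in the others) and the fewest detected probes (28185), and the part of these in the low values was not tested.

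Nr1d1 in heroin 5, the lowest of the 6 heroin rats, had a ratio of 0.683, but 0.345 under quantile normalization.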

How the results depend on the processing

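Counts past both thresholds were 1 clock gene (Per2), 1 other clock-related gene (Vip), 11 activity-induced genes, 0 glucocorticoid-induced genes and 694 of all probes. Clock genes numbered 0 under the 75th percentile, quantile normalization, the percentile of detected probes (chosen after seeing the data), normexp, no detection filter, the methods' t-test (Per2 unadjusted p = 0.0544) and the replicate block, and 3 with array weights. Those with an unadjusted p under 0.05 (1, Per2) were 0 under the first 3 of these and the methods' t-test, and 4 with array weights. With array weights, Per1, Per2, Arntl and Bhlhb2 had adjusted p by limma of 0.0186, 0.0185, 0.0485 and 0.0223. In that fit 2488 of the 25555 probes passed both thresholds and the median tested probe was 0.23 higher in heroin rats. The shares of all probes with an adjusted or unadjusted p under 0.05 were not counted there. These values can therefore not be read as a result about the clock genes. Heroin 6 had a weight of 0.26 and heroin 1 of 3.65.

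Other clock-related genes numbered 0 under the 75th percentile, quantile normalization, the percentile of detected probes, normexp, the relative values and with marked spots kept, and 2 with array weights. Activity-induced genes numbered 3 under the 75th percentile, 4 under quantile normalization and the percentile of detected probes, and 18 with array weights, which gave 2 glucocorticoid-induced genes. All probes numbered 457 under quantile normalization, 123 under normexp, 1560 without the filter, 1067 with detection in 1 group, 308 by the methods' t-test and 2488 with array weights. Of the 694, 457 were higher, against 33 of 779 under the 75th percentile and 218 of 457 under quantile normalization. There was 1 pair of clock genes with an adjusted p under 0.05 under the 75th percentile, against 2. Pairs were not run under the other filters, tests, the series table or the block.

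Leaving out 1 rat gave 0 to 2 clock genes past both thresholds (2 without heroin 6), 0 to 3 under 0.05 (0 without saline 3, 3 without heroin 6), 0 to 1 other clock-related genes, 343 (without saline 2) to 2352 (without saline 5) of all probes and 0 to 4 pairs (0 without heroin 5 or 6, 1 without saline 3, 4 without saline 2). Dbp, near 0, ran from -0.054 to 0.17 in these fits. The sign turned under the 75th percentile for Dbp (-0.17), Nr1d1 (-0.022) and Bhlhb3 (-0.010), under quantile normalization for Arntl (-3e-04), Dbp (-0.20) and Bhlhb3 (-0.035), and under the percentile of detected probes for Dbp (-0.14). Per1, Per2 and Bhlhb2 stayed above 0 in every alternative run. The relative values held no row for Dbp, Bhlhb3, Clock and Nr1d2, so these were not analysed there. The cause was not tested for any of these changes.

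The replicate numbers coincide with the slides but do not pair the rats by deviation, since r of same-numbered rats was 0.38, -0.13, 0.35, 0.02 and -0.24. The replicate block gave 805 of all probes past both thresholds, 14 activity-induced genes and 0 clock genes. Signals of Clock and Nr1d2 near background, and 5 or 6 rats per group, limit the precision.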
